A study of Mus musculus with 18 samples.

Results

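Collagen chain genes, the genes whose only annotated symbol is Col, a type number, the letter a and a chain number, were followed across mouse pluripotent cells, fibroblasts and intestinal organoids. The rule found 44 genes among the 19938 genes with a single symbol on the array. They comprise 11 fibrillar chains (types I, II, III, V, XI, XXIV and XXVII), 8 basement membrane chains (types IV, XV and XVIII) and 25 chains of other types. Each gene was read by its probe set with the highest mean, a choice that arose only for Col6a5 and Col6a6, which had 2 probe sets each.

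The study asked what mutation of Apc does in different cell types, and what a mutant beta-catenin does once induced in ESCs and MEFs. Apc is part of the complex that marks beta-catenin, the effector of Wnt signalling, for destruction. There were 18 arrays. Reprogrammed colon tumour cells (RTCs), which were kept like stem cells, gave 3 arrays. Derivative #45 of RTC 1 and derivative #9 of RTC 3 gave 1 array each. Embryonic stem cells (ESCs) of the genotypes Apc Min/Min, Apc Min/+ and Apc +/+ gave 1 array each. Small intestinal organoids derived from #45 gave 1 array with and 1 without 4-hydroxytamoxifen (4-OHT, 1 uM for 2 days). Embryonic fibroblasts (MEFs) derived from #45 gave 2 arrays with and 2 without 4-OHT (2 ug/ml for 2 days). S33 ESCs and S33 MEFs gave 1 array each with and 1 each without doxycycline (dox), with no dose or time in the labels. Any allele carried by #45 is shared by the organoids and MEFs derived from it, with and without 4-OHT. S33 cells are the only ESCs here with and without an added drug, so the question on induced mutant beta-catenin would concern the dox arms. The labels do not say what 4-OHT switches, what S33 stands for, or whether feeder fibroblasts lay under the stem cells. The growth protocol, which is the same text for every sample, lists Min/Min ESCs with trophoblast stem cells in TS medium with FGF4, where other ESCs had medium with LIF. Whether the Apc Min/Min array came from cells in TS medium is not stated beyond this. Organoids were grown in Matrigel, a basement membrane gel made outside these cells.

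Collagens are triple-helical matrix proteins. Fibrillar chains such as Col1a1 and Col1a2 are cut from procollagens outside the cell and assemble into the fibres of connective tissue. Col3a1 and the type V chains Col5a1 and Col5a2 join or regulate those fibres. The type IV chains Col4a1 and Col4a2 form the network of nearly every basement membrane together with laminins and nidogens. Col15a1 and Col18a1 are basement membrane chains that carry glycosaminoglycans. Col6a1, Col6a2 and Col6a3 make the beaded filaments around cells, Col12a1 and Col14a1 decorate fibril surfaces, Col8a1 and Col8a2 form short-chain networks, and Col10a1 is the short-chain collagen of hypertrophic cartilage. In culture, fibroblasts are the usual source of the fibrillar chains, and parietal endoderm is known for heavy secretion of type IV collagen and laminin.

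Several members lie side by side in the genome. In the RefSeq annotation of GRCm38.p6, Col4a1 and Col4a2 lie head to head on chromosome 8 with overlapping starts, and Col4a5 and Col4a6 lie on chromosome X with a gap of 1274 bases. Col3a1 and Col5a2 are neighbours on chromosome 1 with 24624 bases between them, and Col6a1 and Col6a2 are on chromosome 10 with a gap of 85161 bases. The sequences below belong to members that the results turn on. Upstream sequence is shown for Col1a2 among the fibroblast chains, Col3a1 with the largest difference with 4-OHT and Col10a1 with the difference with dox. For Col4a1 and Col4a2 the stretch between both starts is shown, where the transcripts, on opposite strands, overlap. All are printed from the plus strand of GRCm38.p6, as RefSeq gives them, and capitals mark the TATA box letters TATAAA, the box CCAAT and the GC box GGGCGG on either strand.

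Col1a2, chr6:4505368-4505617, 250 bases upstream: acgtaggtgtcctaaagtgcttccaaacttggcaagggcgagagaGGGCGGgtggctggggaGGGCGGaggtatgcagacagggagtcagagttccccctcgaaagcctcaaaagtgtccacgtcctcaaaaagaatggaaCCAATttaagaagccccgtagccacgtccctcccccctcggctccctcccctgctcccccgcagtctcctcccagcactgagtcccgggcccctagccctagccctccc
Col3a1, chr1:45311288-45311537, 250 bases upstream: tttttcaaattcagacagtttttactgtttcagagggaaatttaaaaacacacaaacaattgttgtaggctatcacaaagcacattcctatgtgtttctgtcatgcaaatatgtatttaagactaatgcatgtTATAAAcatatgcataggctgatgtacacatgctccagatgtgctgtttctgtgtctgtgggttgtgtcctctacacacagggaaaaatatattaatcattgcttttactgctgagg
Col10a1, chr10:34389731-34389980, 250 bases upstream: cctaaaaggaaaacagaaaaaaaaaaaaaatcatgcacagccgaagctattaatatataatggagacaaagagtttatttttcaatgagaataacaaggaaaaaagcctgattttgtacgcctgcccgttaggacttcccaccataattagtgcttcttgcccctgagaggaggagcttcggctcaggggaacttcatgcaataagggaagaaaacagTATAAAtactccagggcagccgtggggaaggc
Col4a1 and Col4a2, chr8:11312805-11312826, the overlap of both transcript starts: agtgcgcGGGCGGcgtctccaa

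The table of promoters held 38 starts of 35 of the 44 collagens. GGGCGG was present within 250 bases upstream of 57.9% of the collagen starts, against 32.7% of all 32851 starts in the table. CCAAT was present in 34.2% of collagen starts against 33.8% of all, and TATAAA in 13.2% against 12.4%. Both strands were searched, the 3 motifs do not overlap one another, and a match is a description of these letters only.

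Levels below are log2 intensities after quantile normalization of all arrays together, so a difference of 1 is 2-fold. Different genes are read by different probes, so a gene is compared between arrays and not with another gene. The array median, which quantile normalization makes equal, served as the line between brighter and dimmer genes. Of the 44 collagens, 12 lay above it in all 18 arrays, 25 in some and 7 in none. The 7 were Col4a3, Col4a4, Col4a6, Col6a4, Col6a5, Col19a1 and Col28a1. Fibroblasts had 29 to 34 collagens above the median, pluripotent cells 21 to 26, and the organoids 16 with and 27 without 4-OHT. The mean level of the fibrillar chains was 9.87 to 10.48 in the 6 fibroblast arrays, 8.15 to 9.13 in the 10 pluripotent arrays and 7.86 to 8.26 in the organoids. The basement membrane mean was 8.43 to 9.02 in fibroblasts, 7.77 to 8.502 in pluripotent cells and 7.58 to 7.90 in organoids, so the fibroblast and pluripotent ranges met for this class, at Apc Min/Min ESC, but not for the fibrillar one.

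**Figure D1:**
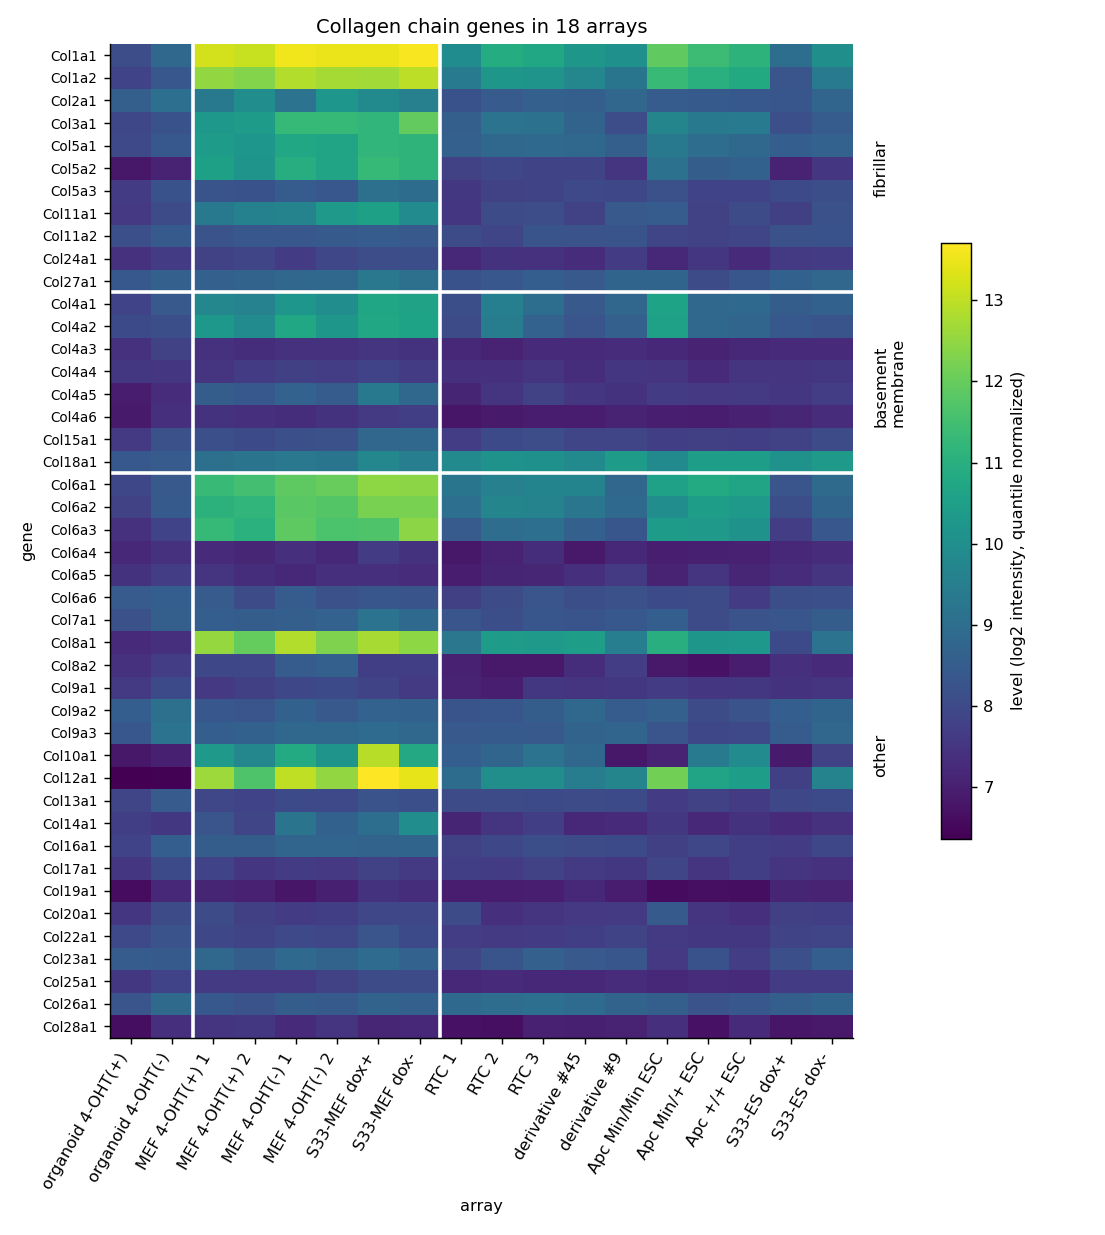
Log2 level of the 44 collagen genes (rows, grouped as fibrillar, basement membrane and other) in the 18 arrays (columns), where white lines part organoids, fibroblasts and pluripotent cells. Colours are to be compared along a row; Col1a1, Col1a2, Col12a1 and the 3 Col6 chains are bright in the 6 fibroblast arrays, and Col4a1 and Col4a2 are also bright in Apc Min/Min ESC.

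The labels were checked against defining markers. Nanog, a pluripotency factor, was at 13.17 to 13.48 in every pluripotent array and at 6.84 to 7.54 elsewhere. Olfm4, a gut stem cell marker, was at 13.79 and 13.67 in the organoids with and without 4-OHT and at 6.32 to 6.78 elsewhere. The fibroblast marker list, 15 genes on the array, averaged 12.08 to 12.54 in MEFs and 7.22 to 7.27 in organoids. In the pluripotent arrays it ranged from 8.36 in S33 ESCs with dox to 10.95 in Apc +/+ ESCs, and these values are given again beside the collagens they move with.

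Untreated fibroblasts had high levels of the connective tissue collagens. All 11 fibrillar chains were higher in them than in pluripotent cells, as were the 3 Col6 chains, Col12a1 and Col8a1, by up to 8.70-fold. The comparison set 3 fibroblast arrays (2 #45-derived without 4-OHT and 1 S33 without dox) against 8 pluripotent arrays without Apc Min/Min ESC and without dox, with limma and Benjamini-Hochberg adjustment over the 13051 genes tested. A gene entered a comparison if it was above the array median in at least 1 array compared, and was called at an adjusted p under 0.05. Of the 36 collagens tested, 29 rose and 1 fell, against 33.7% of all genes called higher and 30.6% called lower. Their median log2 difference was 0.96, against 0.04 over all genes. Among the rises, Col4a5, Col8a2, Col9a1, Col14a1, Col22a1, Col25a1 and the fibrillar Col24a1 were below the median in all 8 pluripotent arrays. They entered through fibroblasts alone, so a fall was hardly open to them. Without this filter 32 of 44 collagens were called in either direction, where 44.7% of all genes were.

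Col12a1 was at 12.999, 12.50 and 13.43 in the 3 fibroblast arrays, against a lowest of 8.96, a median of 9.85 and a highest of 10.65 in the 8 pluripotent arrays. These groups did not overlap, and the log2 difference was 3.12 ± 0.31 (SE; adjusted p = 3.396e-06, limma). Col1a1 was at 13.54, 13.50 and 13.63 in fibroblasts, against 9.94, 10.50 and 11.41 as lowest, median and highest in pluripotent cells, a difference of 3.00 ± 0.30. The other large rises were those of Col5a2 (2.95 ± 0.24), Col6a3 (2.94 ± 0.42) and Col1a2 (2.86 ± 0.36). Col3a1 rose by 2.64 ± 0.27, Col5a1 by 2.09 ± 0.13, Col6a1 by 2.43 ± 0.40 and Col6a2 by 2.43 ± 0.35. These are the chains of fibrils, of their regulators and of the filaments around cells.

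The basement membrane class did not move as 1 block. Of its 5 members tested, 4 rose and 1 fell. Col4a1 and Col4a2 rose by 1.47 ± 0.25 and 1.91 ± 0.25, smaller steps than those of the fibrillar chains above. Other fibrillar chains rose by less than Col4a1: Col2a1 by 1.12, Col5a3 by 0.74, Col24a1 by 0.47, Col27a1 by 0.47 and Col11a2 by 0.32. Col15a1 rose by 0.50 ± 0.15 (adjusted p = 0.0114, limma), and this call was lost without the S33 MEF array (0.29, adjusted p = 0.0967, limma). Col18a1 was the single fall: it was at 9.31, 9.21 and 9.52 in fibroblasts, against a lowest of 9.85, a median of 10.24 and a highest of 10.47 in pluripotent cells. The log2 difference was -0.85 ± 0.16 (adjusted p = 0.000469, limma), with no overlap between the groups.

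The machinery that makes collagen went with the chains. Of 30 genes of collagen processing tested, 27 rose and 0 fell, with a median log2 difference of 1.49. Over all genes 33.7% were called higher and 30.6% lower. The processing genes that rose include Serpinh1 (2.26 ± 0.23), the collagen chaperone Hsp47, P4ha3 (2.82 ± 0.30), a prolyl hydroxylase subunit, and Lox (2.22 ± 0.33), which cross-links the fibres. Of 8 collagen receptors, 7 rose, among them Ddr2 (2.97 ± 0.38), a kinase that binds fibrillar collagen. Of 13 basement membrane partners, 7 rose and 4 fell, the falls being near the share of all genes called lower. Lama4 rose (2.91 ± 0.41) and Lama1, the laminin chain of early embryonic basement membranes, fell (-2.16 ± 0.34). The fibroblast markers rose in 15 of 15 cases. Itga2, Lama2 and Fap were below the array median in all 8 pluripotent arrays and entered through fibroblasts alone. Lama1 and Lama3 were below it in the untreated fibroblasts and entered through pluripotent cells alone. In bulk arrays, fewer cells of a type and less RNA per cell cannot be told apart.

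In #45-derived fibroblasts given 4-OHT, most collagens had lower values than without it, but none passed the test. limma called 0 of the 34 collagens and 0 of all 11603 genes tested (0%). At an unadjusted p under 0.05, 13 collagens were lower and 0 higher, where 1.94% of all genes were lower and 2.53% higher. The difference was negative for 33 of 34 collagens, with a median of -0.27 against 0.00 over all genes. In 24 of the 34 both treated arrays lay below both untreated arrays, as did 14.9% of all genes, and in 1, Col20a1, both lay above, as in 17.9% of all genes.

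Col3a1 showed the largest difference. Its level was 10.29 and 10.43 with 4-OHT, against 11.29 and 11.27 without. The log2 difference was -0.92 ± 0.10 (SE, n = 2 each; adjusted p = 0.835, limma). Col6a2 was at 11.10 and 11.19 with 4-OHT, against 11.84 and 11.74 without, a difference of -0.65 ± 0.09. Col6a3 was at 11.27 and 11.05 with 4-OHT, against 11.88 and 11.63 without (-0.59 ± 0.15), and Col6a1 was at 11.30 and 11.53, against 11.88 and 11.999 without (-0.52 ± 0.12). In these 4 genes the treated and untreated arrays did not overlap, although the step was under 2-fold.

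The type I chains differed less. Col1a1 was at 13.20 and 13.10 with 4-OHT, against 13.54 and 13.50 without (-0.37 ± 0.09), and Col1a2 was at 12.51 and 12.35, against 12.87 and 12.72 without (-0.37 ± 0.11). Col5a1 and Col5a2 had differences of -0.41 ± 0.11 and -0.44 ± 0.19. Col12a1 was at 12.63 and 11.67 with 4-OHT, against 12.999 and 12.50 without, so its groups overlapped (-0.60 ± 0.39). In the basement membrane class Col4a1 and Col4a2 had the same difference to 2 decimals, -0.39, with SEs of 0.13 and 0.23. Col15a1 and Col18a1 lay nearer 0 at -0.10 ± 0.10 and -0.13 ± 0.10. Of the members outside the fixed set of names, Col14a1 (-0.81 ± 0.25) and Col8a2 (-0.60 ± 0.09) had the next largest differences and are named after their values were seen.

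The processing list had 0 of 30 genes called and 7 lower at an unadjusted p under 0.05, with 29 of 30 differences negative and a median of -0.19. limma called 0 of 8 receptors, 0 of 11 basement membrane partners and 0 of 15 fibroblast markers, with 1, 1 and 2 members lower at an unadjusted p under 0.05. The fibroblast marker list had a median difference of -0.23, with 13 differences negative and 2 positive. Its mean log2 level was 12.28 and 12.08 with 4-OHT, against 12.52 and 12.40 without. This mean cannot tell fewer fibroblasts from less RNA per cell. Twist2, 1 of the 2 markers with a positive difference, was at 11.99 and 12.65 with 4-OHT, against 11.65 and 12.36 without. The part of the marker list in the collagen differences was not tested. Lum, a small proteoglycan on collagen fibrils, was 1 of the 2 markers lower at an unadjusted p under 0.05. It was at 10.75 and 10.99 with 4-OHT against 11.81 and 12.26 without (-1.17 ± 0.20).

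S33 MEFs allow the same genes to be read in another fibroblast culture, with 1 array per arm and so no test. Of 34 collagens, 1 was at least 2-fold apart, against 6.22% of all genes (2.5% higher). This was Col10a1, at 12.93 with dox against 10.80 without, a log2 difference of 2.13 or 4.38-fold. In the #45-derived fibroblasts Col10a1 was at 10.30 and 9.76 with 4-OHT, against 10.85 and 10.18 without. Of 4 cartilage and bone markers that passed the filter in S33 MEFs, Sp7, a factor of bone-forming cells, was higher at 8.78 with dox against 7.02 without. Sox9, a factor of early cartilage, was lower at 10.08 with dox against 11.22 without. Their part in the Col10a1 difference was not tested.

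Some differences with dox ran the way of those with 4-OHT and others did not. Col3a1 was at 11.20 with dox against 11.94 without (-0.74), Col14a1 at 9.01 against 9.95 (-0.94) and Col6a3 at 11.70 against 12.42 (-0.72). These 3 were the collagens at least 0.5 lower with dox among those lower with 4-OHT, and the 2 treatments share no arrays. Lum was at 9.43 with dox against 11.75 without, and Dcn, the proteoglycan decorin, at 11.10 against 13.07. Not all followed. Of the 13 collagens lower with 4-OHT at an unadjusted p under 0.05, 11 passed the filter here, 7 of them lower with dox and 4 higher. Col8a2 and Col9a1 were below the array median in both S33 MEF arrays. Col8a2 was at 7.72 with dox against 7.73 without, and Col9a1 at 7.86 against 7.62. Over all 32 collagens that passed the filter in both comparisons, only 8 were lower with dox. Col6a1 and Col6a2 differed by 0.03 and -0.02, Col5a1 by 0.06 and Col4a1 by 0.08, each without a replicate.

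**Figure D2:**
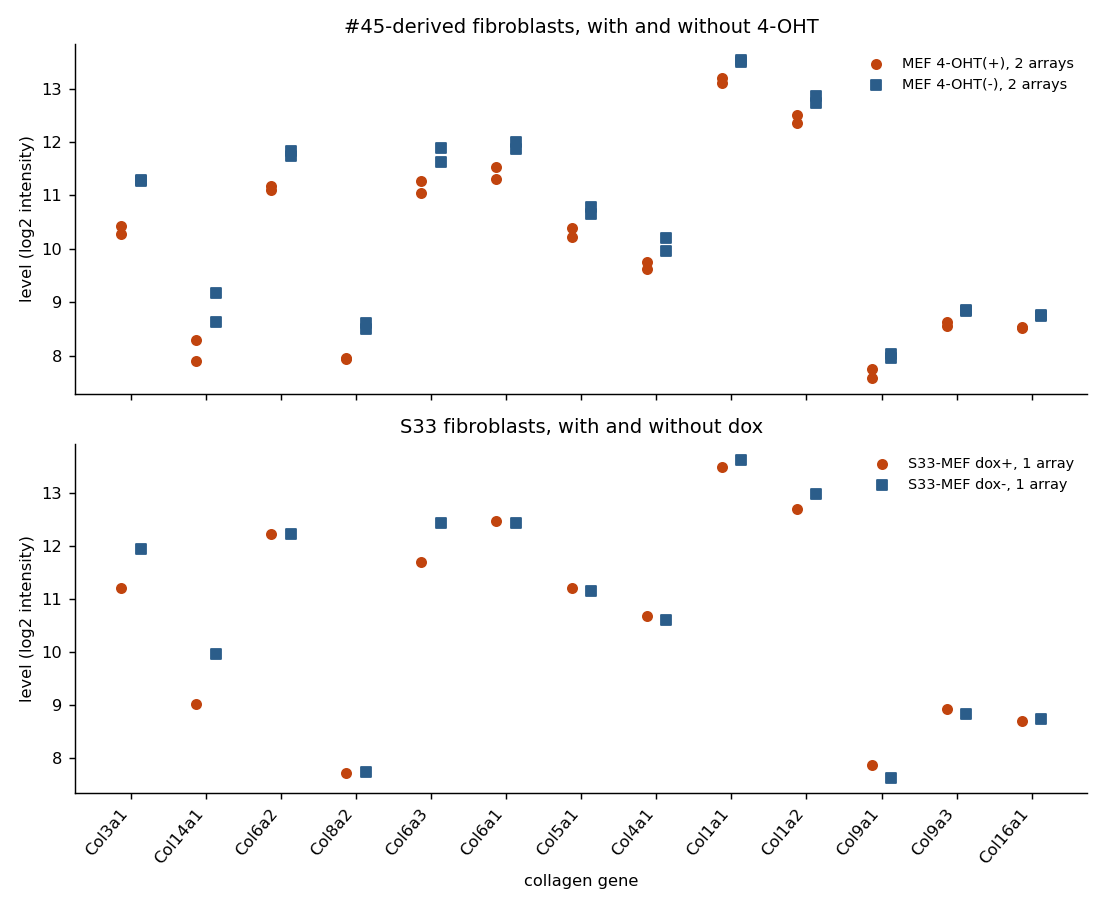
Log2 level of the 13 collagens with an unadjusted p under 0.05 between MEFs with and without 4-OHT, in those MEFs (upper panel, 2 arrays each) and in S33 MEFs with and without dox (lower panel, 1 array each). In the upper panel the treated arrays lie below the untreated ones for each gene; in the lower panel Col3a1, Col14a1 and Col6a3 are lower with dox and the others differ by less than 0.5.

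Organoids, which had high gut epithelium and low fibroblast markers, had low levels of the connective tissue chains. In limma with 4-OHT as a term, 2 organoid arrays were set against 4 #45-derived MEF arrays. Of 35 collagens tested, 20 fell and 1 rose, against 32.2% of all genes called lower and 32.4% higher. The median was -0.77, against 0.03 over all genes. Among the falls, Col4a5, Col5a2, Col6a3, Col8a1, Col8a2, Col10a1, Col12a1 and Col14a1 were below the array median in both organoid arrays. They entered through MEFs alone, so a rise was hardly open to them. Without the filter 21 of 44 collagens were called in either direction, where 47.2% of all genes were. With the values as deposited 27 fell and 0 rose, where 65.3% of all genes were called in either direction, and the median of all genes itself moved to the lower side, by the amount given in the closing section.

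Col12a1 was at 6.36 and 6.39 in organoids with and without 4-OHT, against 11.67 to 12.999 in the 4 MEF arrays, a log2 difference of -6.07 ± 0.32 (adjusted p = 4.2e-05, limma). Col8a1 was at 7.27 and 7.39 in organoids, against 11.98 to 12.86 in MEFs (-5.09 ± 0.23). Col1a1 was at 8.10 and 8.81 in organoids, against 13.10 to 13.54 in MEFs (-4.88 ± 0.11), and Col1a2 fell by 4.52 ± 0.10. Col6a3 fell by 3.82 ± 0.13 and Col5a2 by 3.62 ± 0.16. The basement membrane chains fell by less than these chains: Col4a1 by 1.76 ± 0.12, Col4a2 by 2.23 ± 0.19 and Col18a1 by 0.77 ± 0.09. Col15a1 did not pass the test (-0.24 ± 0.14, adjusted p = 0.177, limma). The classes overlapped. The fibrillar Col2a1 (-0.86), Col5a3 (-0.41), Col27a1 (-0.23) and Col11a2 (-0.04) had smaller differences than Col4a1, and 7 of 10 fibrillar chains were called lower. The single rise was Col9a2, a fibril-associated cartilage chain, at 0.38 ± 0.12 (adjusted p = 0.0371, limma), and it was lost, with 0 collagens higher, when any 1 of the MEF arrays or the organoid array without 4-OHT was left out. Leaving out the organoid array with 4-OHT gave 2 higher.

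The genes around collagen were mostly lower in organoids too. Of the processing genes 28 of 30 fell and 0 rose, where 32.2% of all genes were called lower and 32.4% higher. P4hb, a prolyl hydroxylase subunit that also works as a general protein disulphide isomerase, was at 12.82 and 12.98 in organoids against 12.77 to 12.97 in MEFs. Of 8 receptors, 4 fell and Itga2, the integrin chain by which epithelium binds collagen, rose by 2.19 ± 0.14. Of 12 basement membrane partners, 10 fell and Lamb3, a chain of an epithelial laminin, rose by 3.31 ± 0.12. The fibroblast markers fell in 15 of 15 cases and the gut epithelium markers rose in 13 of 13. Many members of these lists were below the array median in either organoids or MEFs and entered through the other cells alone. Among the falls, P4ha3, Serpinh1, Lox, Sparc, Dcn, Postn and Cdh11 were below it in both organoid arrays. Among the rises, Lamb3, Alpi, Fabp1, Fabp2 and Olfm4 were below it in all MEF arrays. For these the other direction was hardly open.

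**Figure D3:**
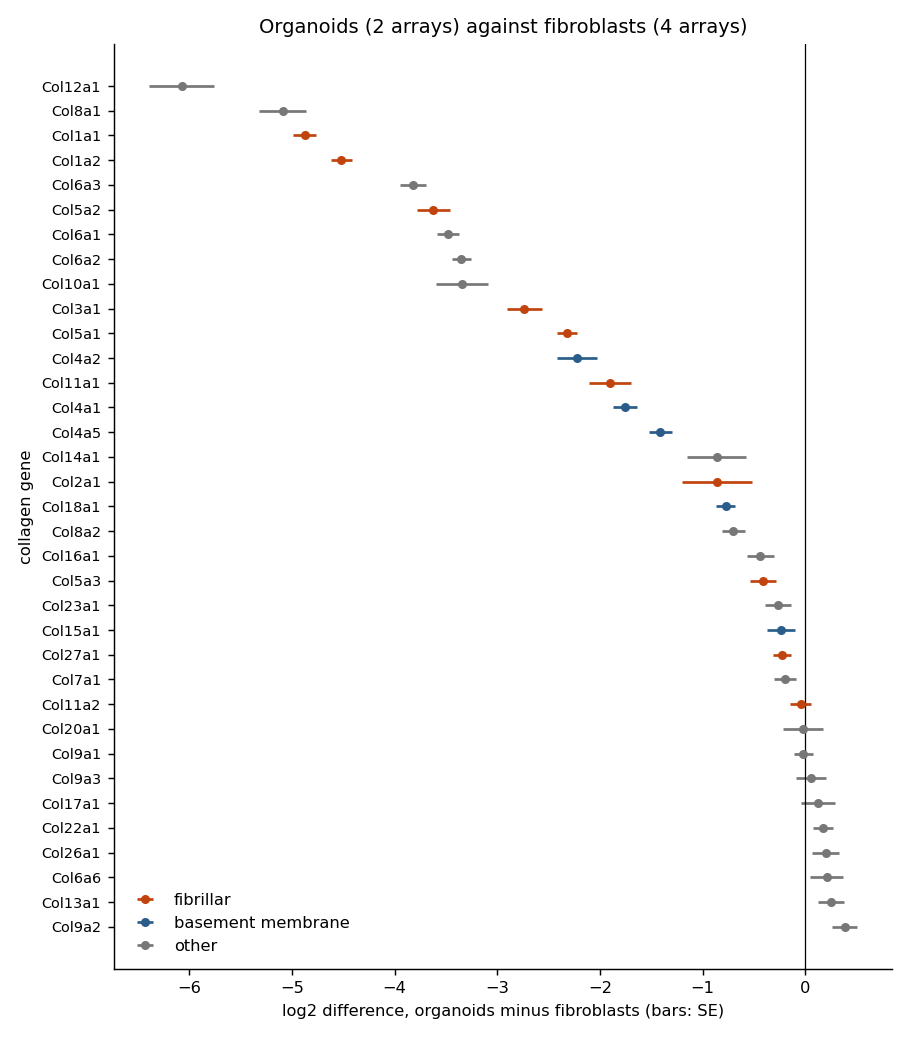
Log2 difference between organoids (2 arrays) and #45-derived MEFs (4 arrays) for the 35 collagens tested (points, with SE bars), coloured by class. Col12a1, Col8a1, Col1a1 and Col1a2 lie below -4, the basement membrane chains lie between -2.23 and -0.24, and Col9a2 is highest at 0.38.

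Against the pluripotent derivatives #45 and #9 these organoids differed in fewer collagens, and in fewer genes of any kind. Over all genes 37.1% were called here, against 64.6% in the comparison with MEFs, which held more arrays. Of 31 collagens tested, 8 fell and 0 rose, where 19% of all genes were called lower and 18.2% higher. Col6a3, Col8a1 and Col12a1 were below the array median in both organoid arrays and entered through the derivatives alone. Col12a1 was at 6.36 and 6.39 in organoids, against 9.47 in #45 and 9.70 in #9, a difference of -3.20 ± 0.24 (adjusted p = 6.8e-05, limma). Col8a1 fell by 2.66 ± 0.34, Col1a1 by 1.70 ± 0.30 and Col1a2 by 1.39 ± 0.30, and the 3 Col6 chains by 0.84 to 1.04. Col18a1 was at 8.38 and 8.47 in organoids, against 9.89 in #45 and 10.38 in #9 (-1.71 ± 0.26). The count was 4 without the organoid array with 4-OHT, where 23.1% of all genes were called, and 5 without #45, where 35.9% were. The 3 Col6 chains were lost both times, while Col12a1, Col8a1, Col1a1 and Col18a1 passed both times. Of 13 fibroblast markers 11 fell beside them, and 12 of 13 gut epithelium markers rose. Among these, Cdh11, Dcn, Postn and Tagln were below the array median in both organoid arrays. Alpi, Fabp1, Fabp2 and Olfm4 were below it in both derivatives. They too entered through the other cells alone.

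Within the organoids, 4-OHT left 0 of 27 collagens at least 2-fold apart, where 2.84% of all genes were. The difference was negative for 26 of 27, with a median of -0.47 against 0.00 over all genes, from 1 array per arm. Col1a1 was at 8.10 with 4-OHT against 8.81 without, and Col6a2 at 7.77 against 8.46. With the values as deposited 15 collagens were at least 2-fold lower, where 6.37% of all genes were at least 2-fold apart and the median of all genes was -0.22. The test of whether the 4-OHT difference itself differed between organoids and MEFs called 0 of 35 collagens and 0 of 12995 genes in limma. At an unadjusted p under 0.05 it picked out 6 collagens and 1684 genes.

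The pluripotent arrays differed from one another in the fibroblast chains, and the other fibroblast markers differed beside them. To put both on one scale, the linear level in each array was expressed as a percentage of the mean of the 3 untreated fibroblast arrays. It was done for the 14 collagens and 15 fibroblast markers at least 2 log2 units below fibroblasts in the organoids, a choice made on these levels, so the percentages are a description. Signal from background remains in them: the organoid medians were 5.77% with and 7.87% without 4-OHT for collagens, against 2.01% and 2.85% for the markers. Above the organoids, the 2 medians of an array lay close together in most cases. Values within a list spread widely, so a median does not stand for every gene. In RTC 1 the markers ran from 1.83% (Lum) to 56.2% (Vim) and the collagens from 5.98% to 23.6%. In RTC 1, RTC 2 and RTC 3 the collagen medians were 13.1%, 20.1% and 19.4%, beside marker medians of 12.9%, 21.5% and 23.4%. In #45 and #9 they were 16.9% and 9.99%, beside 17.9% and 8.87%. The Apc ESC lines had the higher shares among these. In Apc Min/+ and Apc +/+ ESCs they were 27.4% and 25.1%, beside 34.6% and 33.8%. In S33 ESCs they were 7.05% with dox and 10.7% without, beside 5.36% and 12.4%. In Apc Min/Min ESC the collagen median was 33.5% beside a marker median of 27.2%, so the collagens were above the markers there and below them in Apc Min/+ and Apc +/+ ESCs. Both lists were high in these 3 arrays and low in #9 and S33 ESCs. In S33 ESCs with dox the collagen median lay between those of the organoids and the marker median above both. Whether fibroblasts in the cultures account for these levels was not tested.

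**Figure D4:**
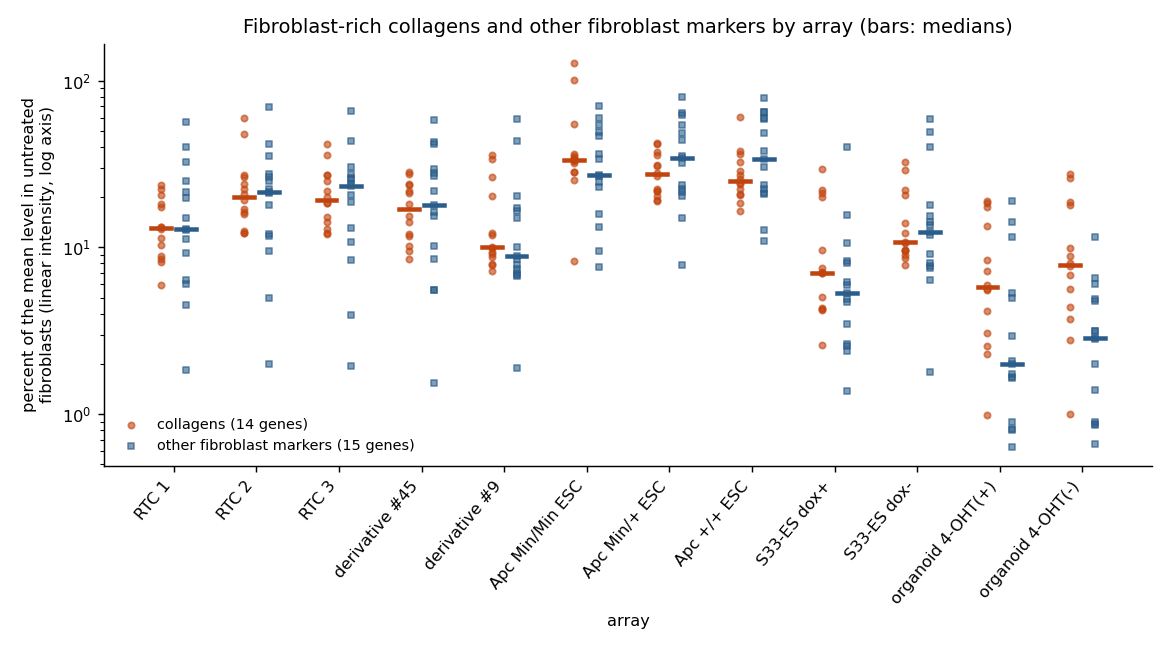
Level of 14 collagens (circles) and 15 other fibroblast markers (squares) in each pluripotent and organoid array, as a percentage of the mean linear level in the 3 untreated fibroblast arrays (log axis), with bars at the medians. The 2 lists have similar medians in most arrays, while values within a list spread widely. In Apc Min/Min ESC 2 collagens, Col4a1 at 127% and Col4a2 at 101%, stand above the rest.

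No collagen passed the test between RTCs and ESCs. limma called 0 of 29 in the 3 RTC arrays against the ESC arrays of S33 without dox, Apc Min/+ and Apc +/+, where 6.69% of all genes were called. At an unadjusted p under 0.05, Col26a1 was higher and Col18a1 lower, that is 2 of 29 against 23.6% of all genes. Both are named here after their values were seen. Col26a1, a chain with an EMI domain, was at 8.88, 9.00 and 9.04 in RTCs, against 8.74 in S33, 8.24 in Apc Min/+ and 8.35 in Apc +/+ ESCs (0.52 ± 0.16, adjusted p = 0.098, limma). Col18a1 was at 9.85, 10.14 and 10.04 in RTCs, against 10.34, 10.47 and 10.45 in those ESCs (-0.41 ± 0.13, adjusted p = 0.108, limma). Without the S33 array, 5 of 28 collagens were called, where 9.83% of all genes were: Col26a1 was higher and Col5a2, Col6a1, Col6a2 and Col6a3 were lower in RTCs. The fibroblast markers had a median difference of -0.50 with all 3 ESC arrays, and 1 of 14, Tagln, was called lower. RTCs against their derivatives gave 0 of 28 collagens called in limma, where 1.6% of all genes were called, and 0 at an unadjusted p under 0.05, where 14.1% of all genes were. Without #45 there was 1, where 3.25% of all genes were called. This was Col10a1, which was at 8.81 in #45, 6.85 in #9 and 8.56 to 9.15 in the RTCs.

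The spread among ESC arrays lay mostly between S33 and the Apc lines. Both Apc +/+ and Apc Min/+ ESCs were at least 2-fold above S33 ESCs without dox for 8 of 28 collagens, where 3.25% of all genes were. Col1a1 was at 11.41 in Apc Min/+ and 11.12 in Apc +/+ ESCs, against 10.01 in S33 ESCs without dox. Col6a1 was at 10.85 and 10.67, against 8.90 in S33 ESCs, and Col6a3 at 10.34 and 10.13, against 8.35. The other members of the 8 were Col1a2, Col5a2, Col6a2, Col8a1 and Col10a1. Col5a2 and Col10a1 were below the array median in S33 ESCs without dox, at 7.53 and 7.80. They entered through the Apc lines alone, so the other direction was hardly open to them. Beside these collagens 9 of 14 fibroblast markers were at least 2-fold higher, among them Lum and Thy1, and 8 of 30 processing genes were, among them Lox. Lum, at 6.15 in S33 ESCs without dox, also entered through the Apc lines alone. No basement membrane chain was among the 8: Col4a1 was at 8.85 and 8.89, against 8.66 in S33 ESCs.

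In S33 ESCs with dox, 25 of 26 collagens had lower values than without, from 1 array per arm. This count includes small steps in dim chains, such as Col11a2 at 8.19 with dox against 8.23 without and Col13a1 at 7.96 against 8.02. The share of all genes with lower values was not counted, so the count is a description only. Of 26 collagens 3 were at least 2-fold lower, where 2.18% of all genes were lower. Col12a1 was at 7.76 with dox against 9.66 without, Col8a1 at 8.01 against 9.17 and Col1a2 at 8.29 against 9.39. With dox Col12a1 was below the array median, so it entered through the array without dox alone. Col1a1 was at 9.03 with dox against 10.01 without. Of 12 fibroblast markers, 8 were at least 2-fold lower, against the same 2.18% of all genes. Their list mean was 8.36 with dox against 9.57 without. Col4a1 was at 8.53 with dox against 8.66 without and Col4a2 at 8.37 against 8.27, with differences of -0.13 and 0.11. Lama1 was at 10.79 with dox against 9.33 without. The array without dox is also the one the Apc +/+ and Apc Min/+ ESCs were set against, so these contrasts share it.

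Apc Min/Min ESC stood out by the type IV chains Col4a1 and Col4a2 and by Col12a1. It was set against the 3 other ESC arrays, with no test since it is 1 array, and a gene counted if it lay at least 2-fold above the highest of them. This held for 3 of 29 collagens, where it held for 2.89% of all genes. Col4a1 was at 10.63 in Apc Min/Min, against 8.85 in Apc Min/+, 8.89 in Apc +/+ and 8.66 in S33 ESCs. Col4a2 was at 10.56 in Apc Min/Min, against 8.85, 8.75 and 8.27 in the same ESCs. Col12a1 was at 12.16 in Apc Min/Min, against 10.65, 10.44 and 9.66. The mean differences were 1.83, 1.94 and 1.91, and the least, to the nearest ESC array, were 1.74, 1.71 and 1.501. Other type IV chains were dim in all these ESCs. Col4a5 was at 7.65 in Apc Min/Min, against 7.59 in Apc Min/+, 7.61 in Apc +/+ and 7.70 in S33 ESCs. Col4a3, Col4a4 and Col4a6 were below the array median in every array.

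The head-to-head pair was as bright as in fibroblasts. Col4a1 reached 127% and Col4a2 101% of the mean fibroblast level, and Col12a1 54.6%, where the median of the 14 collagens in this array was 33.5%. Type I chains were nearer the other ESCs: Col1a1 was at 11.92 in Apc Min/Min, against 11.41 in Apc Min/+, 11.12 in Apc +/+ and 10.01 in S33 ESCs. Col18a1 was not higher, at 9.85 in Apc Min/Min against 10.47, 10.45 and 10.34, and Col15a1 was at 7.71, against 7.76, 7.72 and 8.04. Col10a1 lay the other way, at 7.05 in Apc Min/Min against 9.39, 9.91 and 7.80, which is within 2-fold of the S33 array.

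Laminin chains, endoderm factors and some markers of other cell types were high in the same array. Lama1 was at 12.19 in Apc Min/Min ESC, against 9.68 in Apc Min/+, 9.31 in Apc +/+ and 9.33 in S33 ESCs, and Lamb1 at 12.05, against 10.73, 10.75 and 10.60. These were the 2 of 14 basement membrane partners that were at least 2-fold higher. Of 12 extraembryonic endoderm markers, 7 were: Gata4, Gata6, Sox17, Sox7, Cubn, Srgn and Thbd. Sox17 and Sox7 were below the array median in the other ESCs and entered through Apc Min/Min alone. Sox17, an endoderm transcription factor, was at 10.93 in Apc Min/Min, against 6.60 to 6.96 in the other ESCs, and Gata6 at 11.65, against 8.06 to 8.84. Genes of visceral endoderm went different ways. Cubn, an endocytic receptor, was at 10.74 in Apc Min/Min, against 7.82 to 8.73 in the other ESCs, and Hnf4a at 8.22, against 7.31 to 7.64. Afp, Ttr and Apoa1 were at 6.11, 6.53 and 7.62 in Apc Min/Min, below the array median. Of 7 trophoblast markers 1, Cdx2, was at least 2-fold higher (9.48, against 7.04 to 7.56 in the other ESCs), and Gata3 and Tfap2c were at least 2-fold lower. Among the markers of endothelium, cartilage and bone, and gut, Tie1, Sox9 and Lgr5 were at least 2-fold higher and Pecam1 lower. Their part in the collagen values was not tested. Nanog was at 13.38 there, and Pou5f1 at 12.91. Of 14 fibroblast markers 2, Dcn and Postn, were at least 2-fold higher. The list mean was 10.67 in Apc Min/Min, against 10.89 in Apc Min/+, 10.95 in Apc +/+ and 9.57 in S33 ESCs, so it was lower than in both Apc lines. The medium, the genotype and the culture cannot be told apart with 1 array.

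Among the other pluripotent arrays Col4a1 and Col4a2 were next highest in RTC 2, at 9.54 and 9.49. In RTC 3 they were at 9.03 and 8.67 and in RTC 1 at 8.12 and 8.03. RTC 2 also had the highest Lama1 among these other arrays, at 11.01, with Gata4 at 9.99 and Sox17 at 9.01. S33 ESCs with dox had Gata6 at 10.13 and Lama1 at 10.79 while Col4a1 was at 8.53, so these genes did not always go together. The organoids expressed Gata4 and Gata6 at 11.81 to 12.51 with Col4a1 at 7.85 and 8.41.

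**Figure D5:**
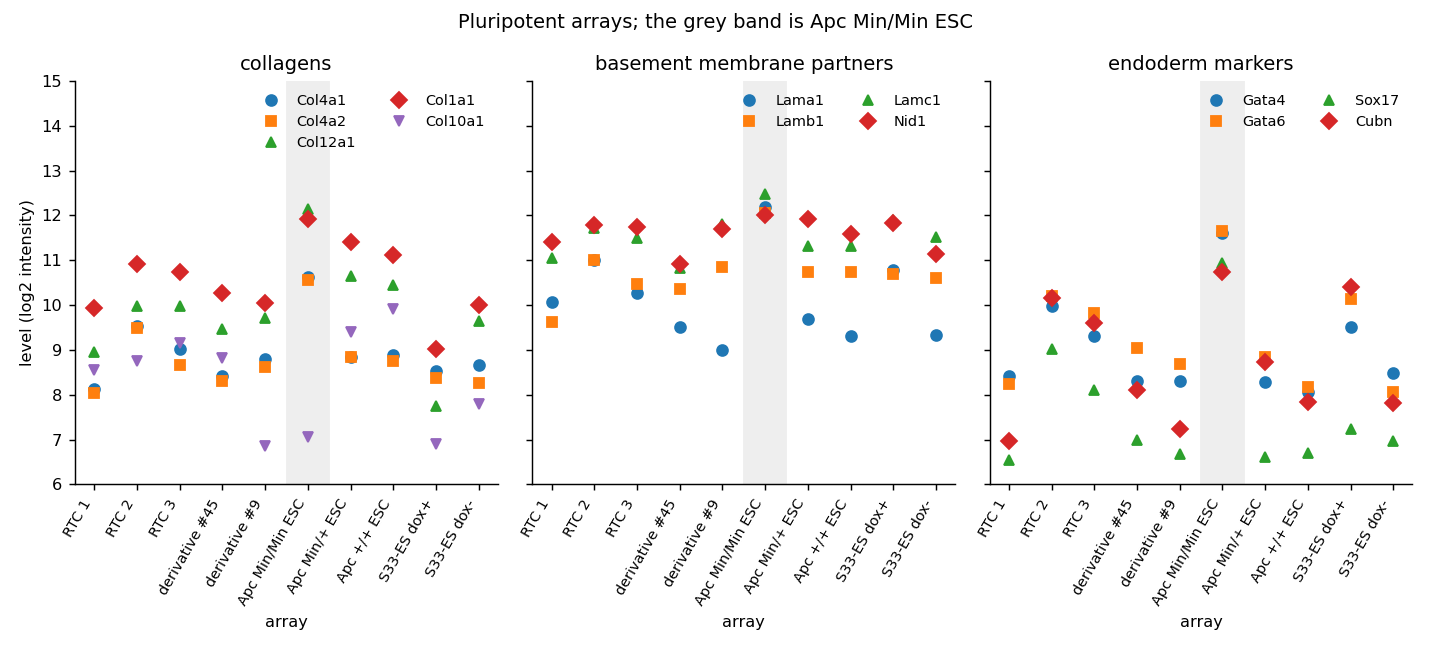
Log2 level of 5 collagens (left), 4 basement membrane partners (middle) and 4 endoderm markers (right) in the 10 pluripotent arrays, with Apc Min/Min ESC in the grey band. All genes shown except Col10a1 are at their highest there, also Col1a1, Lamc1 and Nid1, and RTC 2 comes next for Col4a1, Col4a2 and Lama1.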

How the data were processed

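RNA from 18 samples was read on 1 single-colour array each. The authors deposited linear intensities per probe set, 28856 in all. Their background correction, probe summary and scaling are not given in the sources used here. Deposited array medians ran from 142 to 317, so the log2 of the deposited intensities was quantile normalized over all 18 arrays. Probe sets without values (3) were left out, and 21789 with exactly 1 symbol in the platform annotation were kept (1621 had several and 5443 none). The highest-mean probe set stood for a gene. Genes above the array median (percentile 50) in at least 1 compared array went into limma (version 3.58.1, under R 4.3.3), with linear models, moderated variances without trend, two-sided tests, Benjamini-Hochberg adjustment over all genes tested and a call at an adjusted p under 0.05. The procedure was tested on simulated data. Contrasts with 1 array in an arm were not tested and list genes at least 2-fold apart.

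Groups follow sample titles. Whether replicate arrays were separate cultures is not given, so p-values measure the spread between these arrays, which may be technical, and the number of arrays limits precision. Members and 11 gene lists (143 names, 134 on the array) were chosen with earlier results of these data known. Named were 13 fixed collagens, every member called with 4-OHT or in RTC comparisons, the 5 largest rises and falls elsewhere, members 2-fold apart in untested contrasts, and markers where a result turns on them. RTC 1 and #45, and RTC 3 and #9, are pairs by line of origin. Deviations of the pairs correlated at 0.0869 and 0.0293, and with this block 0 of 28 collagens were called, as without it. Alternatives were the values as deposited, median centring, no filter, eBayes with trend, the mean of a gene's probe sets, left-out arrays and replicate blocks. Promoters, neighbours and coordinates come from RefSeq tables of GRCm38.p6.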

Additional observations from a re-analysis of the deposited data

How the results depend on the processing

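Alternatives were computed for counts of collagens and for named collagens, not for named collagens in the RTC contrasts or with 4-OHT in organoids. None of the called values among them changed sign. For MEFs with against without 4-OHT, taking the number in the titles as a replicate block called 5 collagens lower (Col3a1, Col6a2, Col6a3, Col8a2 and Col14a1) and 148 genes. Same-numbered arrays deviated together (correlation 0.766), but the labels give only a number, and 2 pairs are too few to show pairing. Leaving out any 1 array called 0 collagens. For organoids against derivatives the count of 8 ranged from 4 (without the organoid with 4-OHT) to 9 when arrays were left out, with 5 without #45. For RTCs against ESCs it was 5 without S33 ESCs, and 0 when any other array was left out. For RTCs against derivatives it was 1 without #45 and 0 without any other array. With the values as deposited, 15 collagens were at least 2-fold lower with 4-OHT in organoids, where the median of all genes was -0.22. For organoids against MEFs, as deposited, that median was -0.49 and 0 collagens rose. The count for untreated fibroblasts against pluripotent cells ranged from 21 to 32 around 30, lowest with only the derivatives and S33 ESCs as pluripotent arrays, and for organoids against MEFs from 17 to 27 around 21. Col15a1 lost its call in fibroblasts under 3 settings, and Col1a2 in S33 ESCs with dox came to -0.996 after centring, just short of 2-fold. The cause was not tested. Dim genes, near the array median, have compressed differences.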
